A study of Gloeophyllum trabeum and Trametes versicolor with 18 samples.

Results

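Among the transcripts of the wood-decay fungus *Gloeophyllum trabeum*, 69 of 11880 were lower on high-melanin fungal necromass than on both glucose and low-melanin necromass, while their means on the latter pair lay within 1.5-fold of each other. They were chosen on the deposited TPM values (a level corrected for transcript length and set to the same total in every library) of the same 9 libraries described here. With 1 added to each group mean, the glucose and low-melanin means each had to be at least 1.5 times the high-melanin mean. The glucose mean had to be at least 5 TPM, and the highest high-melanin library had to lie below the lowest of the other 6 libraries. These differences are therefore a description and carry no test. The tables of both fungi in the series hold 27486 transcripts, and the 15606 of *Trametes versicolor* were not used.

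Fungal necromass is dead fungal biomass, made of chitin and glucan walls together with protein and lipid. Melanin is a dark polyphenolic polymer laid down in many fungal walls, and it is known for slowing the breakdown of the walls that hold it. *G. trabeum* is a brown-rot fungus, which removes the polysaccharides of wood and leaves a modified lignin behind. Glucose is taken up directly and in many fungi represses the genes for other carbon sources. The files and the gene table used here pair no product or function with these transcripts, so they are named by locus tag and no role is given.

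*G. trabeum* strain ATCC 11539 was cultured in Highley's medium for 7 days, and the carbon source was glucose at 1% (w/v), low-melanin necromass at 0.45% or high-melanin necromass at 0.45%. Each carbon source had 3 RNA-seq libraries, and stocks of the fungus were kept on malt extract. All groups therefore shared the strain, medium and time, and glucose was supplied at a higher concentration than necromass. The labels do not name the fungus the necromass came from, nor say whether the libraries of a group were separate cultures, so the spread between them may be partly technical. In a bulk culture, fewer hyphae expressing a gene and less RNA per hypha cannot be told apart.

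Depth ran from 18050313 to 25342327 estimated counts per library. Across genes, libraries of a group had Pearson correlations of log2 CPM (counts scaled to library depth) from 0.967 to 0.992, and the lowest values, 0.967 and 0.968, both involved high-melanin replicate 3. Low-melanin replicate 1 also stood apart, on the TPM scale. In it, the 285 transcripts shorter than 200 bases held 28.4% of all TPM but 2.68% of the counts, against 3.99% to 9.47% of TPM in the other 8 libraries. Since TPM has a fixed sum, every other transcript was set lower in that library. Over the 9084 transcripts with at least 5 TPM on glucose, the median log2 ratio of TPM was -0.31 for low-melanin over glucose, 0.22 for high-melanin over low-melanin and -0.09 for high-melanin over glucose. Values below are TPM unless another scale is named, and log2 fold changes come from TMM-scaled counts.

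Of the 9084 transcripts with at least 5 TPM on glucose, 314, or 3.46%, had all 3 high-melanin libraries below all 6 others. Of those, 232 were at least 1.5-fold below both means, and for 69 of these the low-melanin mean was within 1.5-fold of glucose. The remainder of the 232 also differed by 1.5-fold or more between glucose and low-melanin necromass. The 69 ranged from 306 to 4426 bases in length and from 5.84 to 3801 TPM in mean level on glucose. All 69 were protein-coding models in the gene table, and the lowest estimated count of any of them in any library was 20.

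The depth of the drop varied widely among them. Taking the smaller of the 2 ratios to high-melanin necromass, 11 members were at least 4-fold lower, 16 were 2-fold to 4-fold lower and 42 were between 1.5-fold and 2-fold lower, with a median of 1.90-fold. The class medians of level and length differed. Glucose and low-melanin TPM enter both the level and the ratio, and the 1 added to each mean limits ratios at low levels. A higher level in the class with the largest ratios is therefore partly built in. The median level over the 6 glucose and low-melanin libraries was 768 TPM in the first class, 56.3 TPM in the second and 39.1 TPM in the third. Median lengths in the same order were 713, 1018 and 1152 bases. Single members departed from this, such as GLOTRDRAFT_113658, at least 4-fold lower with a mean of 30.3 TPM on glucose.

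**Figure D1:**
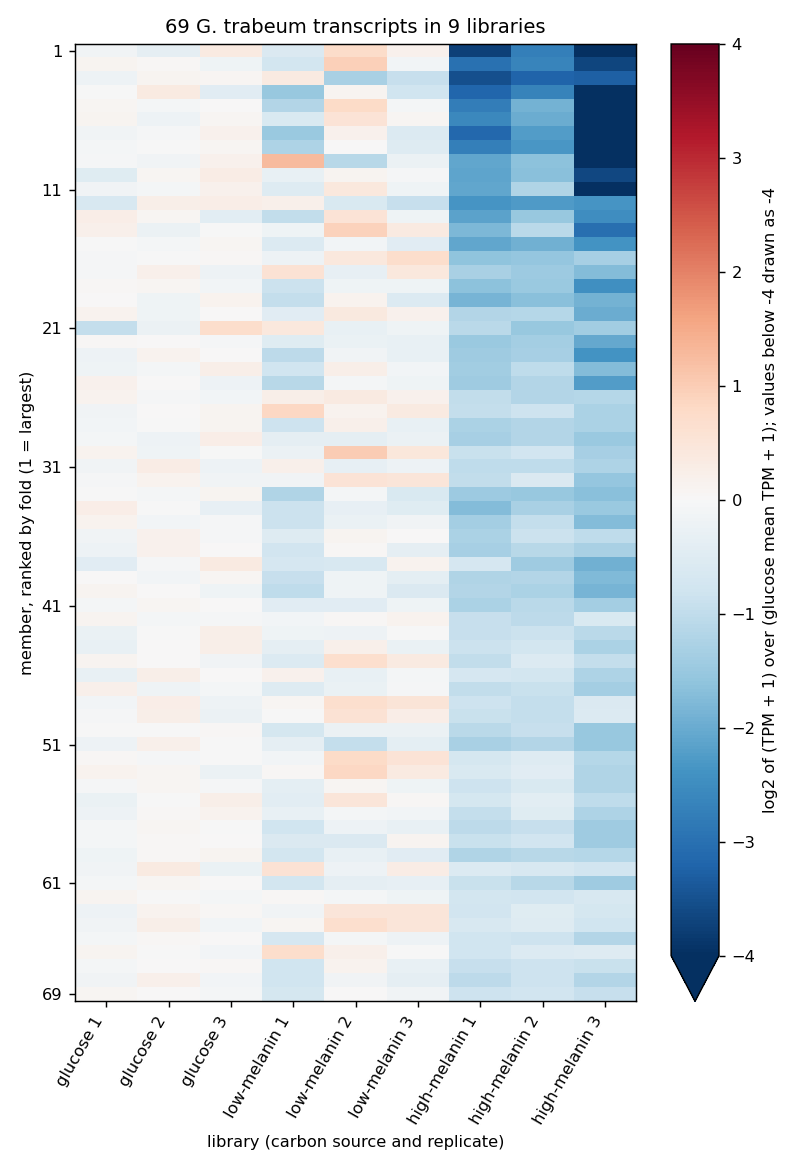
Each row is 1 of the 69 members, ranked by the smaller ratio to high-melanin necromass, and each column is 1 library. Colour gives the log2 of TPM + 1 over the member's glucose mean TPM + 1, with values under -4 drawn as -4. The 3 high-melanin columns are blue in all rows because members were chosen so. They are darkest mostly in the upper rows, but colour is set against glucose alone and does not follow the rank exactly. High-melanin replicate 3 is the lowest of its group in 52 of 69 rows, or 75.4%, beside 70.1% of the 9084 transcripts.

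Together the members took 0.580% ± 0.132 (SD, n = 3) of all TPM on high-melanin necromass, where glucose gave 2.06% ± 0.0711 and low-melanin necromass 1.83% ± 0.305. The glucose libraries held 2.03%, 2.01% and 2.14%, the low-melanin libraries 1.57%, 2.17% and 1.75%, and the high-melanin libraries 0.597%, 0.703% and 0.440%. The high-melanin shares all lay below the other 6, an order that the rule for each member fixes. The 8 members with the highest levels made up 65.3% ± 0.842 of this sum on glucose and 54.5% ± 3.19 on high-melanin necromass. These 8 were ranked on the glucose and low-melanin libraries alone, which favours a larger share there. The other 61 summed to 7152 ± 87.1 TPM on glucose, 6849.5 ± 1850.3 TPM on low-melanin and 2607 ± 424 TPM on high-melanin necromass.

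**Figure D2:**
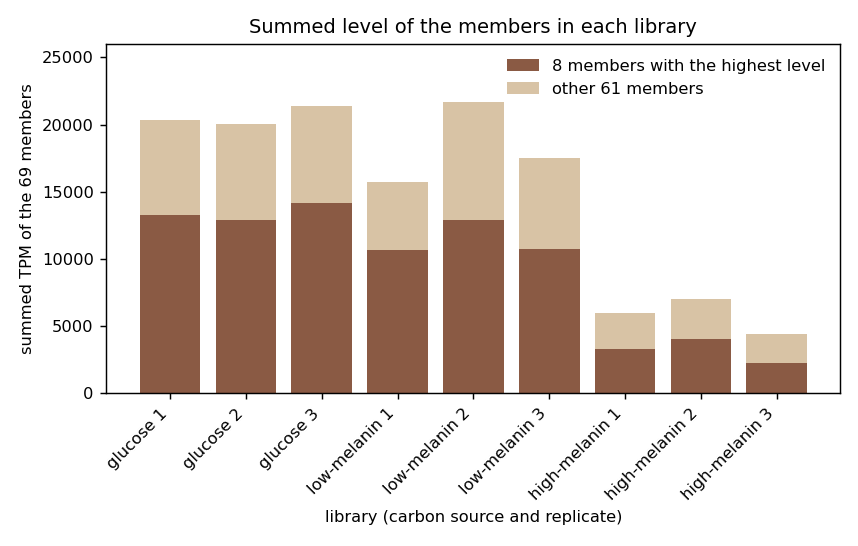
Bars give the summed TPM of the 69 members in each of the 9 libraries, split into the 8 members with the highest level and the other 61. Sums were 20061 to 21400.4 TPM on glucose, 15698 to 21653 TPM on low-melanin and 4399 to 7026 TPM on high-melanin necromass.

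The largest drop was that of GLOTRDRAFT_56292, a transcript of 683 bases. It stood at 782, 672 and 1108 TPM on glucose, 567, 1406 and 961 TPM on low-melanin necromass and 63.9, 126 and 9.79 TPM on high-melanin necromass. Its high-melanin libraries were spread 12.9-fold among themselves and still lay at least 4.50-fold below each of the other 6. In edgeR's fit of counts its log2 fold change was -3.69 ± 0.70 (SE) against glucose and -4.17 ± 0.71 against low-melanin necromass. Without high-melanin replicate 2, its highest library there, these became -4.58 and -5.03. GLOTRDRAFT_132957, of 705 bases, stood at 494, 474 and 400.5 TPM on glucose, 271, 881 and 422 TPM on low-melanin necromass and 57.0, 72.5 and 35.0 TPM on high-melanin necromass. Its log2 fold changes were -3.02 ± 0.39 and -3.51 ± 0.40 in the same order, and the second was -2.88 without low-melanin replicate 2, its highest library.

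Several further abundant transcripts followed, of 639 to 1213 bases. GLOTRDRAFT_66149, the most abundant of all 69 and 658 bases long, stood at 3602, 3749 and 4051 TPM on glucose, 1608, 3869 and 2641 TPM on low-melanin necromass and 574, 753 and 195 TPM on high-melanin necromass, with log2 fold changes of -2.89 ± 0.41 against glucose and -2.69 ± 0.41 against low-melanin necromass. GLOTRDRAFT_123360 stood at 898, 806 and 873 TPM on glucose, 383, 1462 and 818 TPM on low-melanin necromass and 125, 230.2 and 27.7 TPM on high-melanin necromass. Its low-melanin libraries were spread more than its glucose libraries, and its log2 fold changes were -2.75 ± 0.62 and -3.08 ± 0.63. Without high-melanin replicate 2 these were -3.52 and -3.82, and without low-melanin replicate 2 the second was -2.46.

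GLOTRDRAFT_52256 stood at 807, 644 and 786 TPM on glucose, 492, 1096 and 786 TPM on low-melanin necromass and 125, 189 and 40.7 TPM on high-melanin necromass, with log2 fold changes of -2.69 ± 0.45 and -3.01 ± 0.45. GLOTRDRAFT_130004 stood at 290.4, 381 and 217 TPM on glucose, 104, 319.8 and 171 TPM on low-melanin necromass and 32.1, 45.3 and 6.43 TPM on high-melanin necromass, with log2 fold changes of -3.43 ± 0.60 and -3.11 ± 0.59. GLOTRDRAFT_128242 stood at 270.4, 288 and 339 TPM on glucose, 106, 334 and 202 TPM on low-melanin necromass and 33.3, 63.2 and 12.7 TPM on high-melanin necromass. Its log2 fold changes were -3.04 ± 0.50 and -2.82 ± 0.50, or -3.70 and -3.45 without high-melanin replicate 2. In GLOTRDRAFT_52256, GLOTRDRAFT_130004 and GLOTRDRAFT_128242 alike, low-melanin replicate 1 and high-melanin replicate 3 were the lowest of their groups and replicate 2 the highest. On the TPM scale low-melanin replicate 1 was the lowest of its group in 82.2% of the 9084 transcripts and 76.8% of the 69 members. For high-melanin replicate 3 the shares were 70.1% and 75.4%. Replicate 2 being the highest was less common over all transcripts than among members. On low-melanin necromass it was so in 19.3% of the 9084 and 66.7% of the 69, and on high-melanin necromass in 33.0% and 76.8%.

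In 3 of the 12 members with the largest drop the order on low-melanin necromass was another, with replicate 1 the highest library. GLOTRDRAFT_134822 stood at 912, 1128 and 1098 TPM on glucose, 1339.7, 424 and 554 TPM on low-melanin necromass and 91.2, 113 and 107 TPM on high-melanin necromass. Its high-melanin libraries lay close together, and its log2 fold changes were -3.25 ± 0.48 and -3.21 ± 0.48, the second being -2.31 without low-melanin replicate 1. GLOTRDRAFT_132851, of 492 bases, stood at 1344, 1263 and 1542 TPM on glucose, 3324, 642 and 1165 TPM on low-melanin necromass and 329, 444 and 86.5 TPM on high-melanin necromass. Its log2 fold changes were -2.26 ± 0.68 and -3.02 ± 0.71, the second being -1.81 without low-melanin replicate 1. The latter's call at an adjusted p of 0.05 was lost there and in 7 of 18 alternatives in all. This transcript left the set when counts were scaled by TMM instead of TPM. GLOTRDRAFT_109397, at a much lower level, stood at 9.25, 17.9 and 18.2 TPM on glucose, 17.7, 9.47 and 7.54 TPM on low-melanin necromass and 2.14, 2.32 and 2.16 TPM on high-melanin necromass. Its log2 fold changes were -2.73 ± 0.41 and -2.68 ± 0.41, the second being -2.07 without low-melanin replicate 1.

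Only a pair of the 12 apart from GLOTRDRAFT_109397 were below 100 TPM on glucose. GLOTRDRAFT_113658 stood at 21.5, 32.2 and 37.3 TPM on glucose, 24.5, 33.0 and 29.2 TPM on low-melanin necromass and 6.31, 8.78 and 1.54 TPM on high-melanin necromass, with log2 fold changes of -2.48 ± 0.43 and -2.67 ± 0.44. GLOTRDRAFT_121179 stood at 50.02, 52.1 and 61.9 TPM on glucose, 38.0, 73.1 and 48.9 TPM on low-melanin necromass and 12.2, 23.4 and 2.08 TPM on high-melanin necromass, with log2 fold changes of -2.16 ± 0.58 and -2.38 ± 0.59. Without high-melanin replicate 2 the latter's became -3.01 and -3.21. Its call against low-melanin necromass was lost in 9 of 18 alternatives. Some reads of GLOTRDRAFT_121179 also matched other transcripts and were split among them, which makes its values uncertain.

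**Figure D3:**
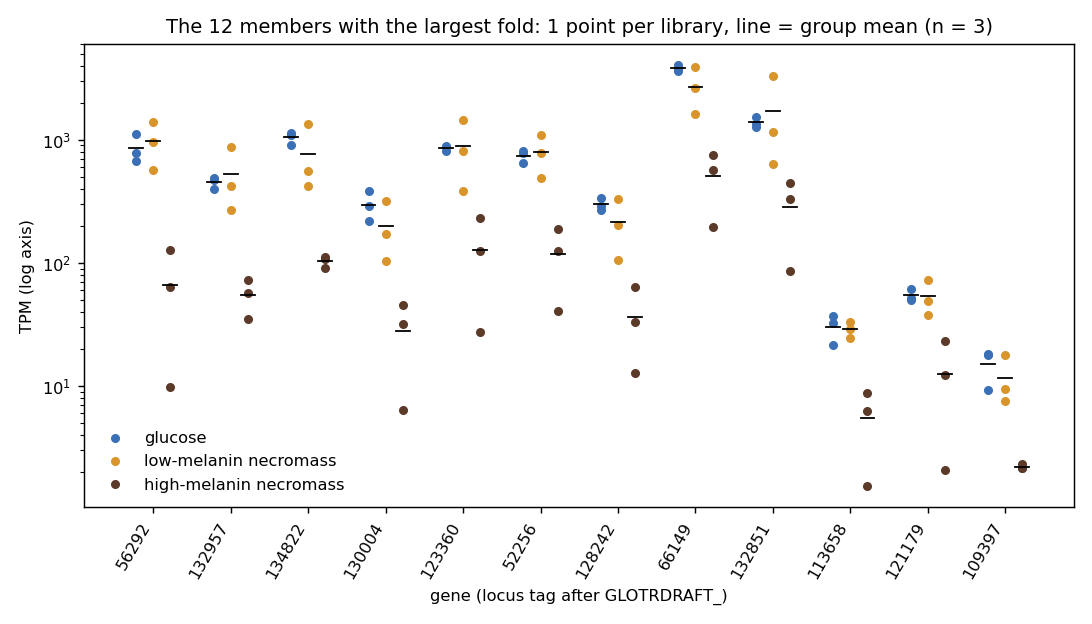
TPM on a log axis for the 12 members with the largest drop, 1 point per library and a line at each group mean (n = 3). In each of the 12 the 3 high-melanin points lie below the other 6, and in 10 of the 12 the lowest point is high-melanin replicate 3. Ranking on the high-melanin mean favours members with a very low library there.

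Abundance and depth of the drop did not always go together. The second most abundant member, GLOTRDRAFT_108762, stood at 2445, 2320.1 and 2598 TPM on glucose, 1664, 2253 and 1790.4 TPM on low-melanin necromass and 576, 652 and 471 TPM on high-melanin necromass. Its group means were 2454 ± 139, 1903 ± 310 and 566 ± 90.5 TPM (SD, n = 3) in the same order. Its log2 fold changes were -2.05 ± 0.18 and -1.996 ± 0.18 (SE). The third, GLOTRDRAFT_20380, of 375 bases, had the smallest ratio of all 69 against low-melanin necromass and stood at 2073, 2009.6 and 1861 TPM on glucose, 1207, 1984 and 1815 TPM on low-melanin necromass and 1108, 1176 and 1037 TPM on high-melanin necromass, with log2 fold changes of -0.75 ± 0.15 and -0.83 ± 0.15. Its highest high-melanin library was 1.03-fold below its lowest low-melanin one. GLOTRDRAFT_99678 stood at 1184, 983 and 1023 TPM on glucose, 581, 890.1 and 956 TPM on low-melanin necromass and 414, 544 and 316 TPM on high-melanin necromass, with log2 fold changes of -1.28 ± 0.18 and -1.15 ± 0.18.

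The 1.5-fold bound passed through a continuous range of values. Just inside it against glucose was GLOTRDRAFT_130892, at 32.4 ± 2.88 TPM on glucose, 41.2 ± 11.3 TPM on low-melanin and 20.8 ± 2.11 TPM on high-melanin necromass, a ratio of 1.53. Next came GLOTRDRAFT_73695, at a ratio of 1.56. Just outside were GLOTRDRAFT_128861, at 6.94 ± 1.31 TPM on glucose, 8.11 ± 1.59 TPM on low-melanin and 4.53 ± 0.309 TPM on high-melanin necromass, a ratio of 1.44, and GLOTRDRAFT_115007, at a ratio of 1.43. Against low-melanin necromass, GLOTRDRAFT_20380 and GLOTRDRAFT_12382 were just inside, both at 1.51, while GLOTRDRAFT_141544 and GLOTRDRAFT_114532 were just outside, at 1.49 and 1.47. The gap between the lowest of the 6 libraries and the highest high-melanin library was small for many, with a median ratio of 1.33 and a lowest of 1.00.

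The counts gave the following calls. All 69 members passed the filter on low counts, as the minimum on glucose made likely. The threshold in edgeR's quasi-likelihood test was an adjusted p of 0.05, with Benjamini-Hochberg adjustment across the 10728 genes tested. By it, 68 members were called lower on high-melanin necromass than on glucose, where 29.3% of all genes tested were called lower. Against low-melanin necromass all 69 were called lower, where 4.65% of all genes were. The rule used both contrasts, so nothing is read from these counts. The 1 member not called against glucose was GLOTRDRAFT_130892, with a log2 fold change of -0.53 ± 0.30 (SE). When high-melanin replicate 3 was left out, the counts were 67 and 64, and without high-melanin replicate 1 they were 65 and 47. Over all genes, calls in either direction against low-melanin necromass were 720 with all libraries, 663 without replicate 3 and 320 without replicate 1. Against glucose they were 6325, 6517 and 5874. Without high-melanin replicate 1 the members' median log2 fold change against low-melanin necromass was -1.32, beside -1.32 with all libraries.

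The median log2 fold change of the members was -1.27 against glucose and -1.32 against low-melanin necromass, beside 0.03 and 0.01 over all genes tested. Members ranged from -3.69 to -0.53 against glucose and from -4.17 to -0.82 against low-melanin necromass. The comparisons share the high-melanin libraries, so their likeness is not a result. Scaling by library size alone moved the all-gene medians to 0.13 and 0.10 and the members' to -1.16 and -1.24, so the members' medians relative to all genes were -1.29 and -1.34, beside -1.30 and -1.33 with TMM.

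**Figure D4:**
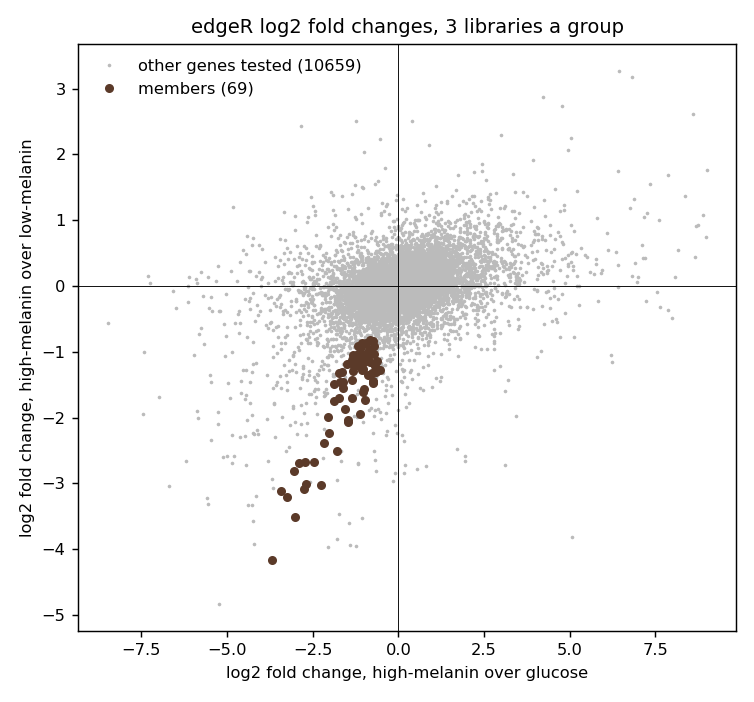
Each point is 1 of 10728 genes, with its edgeR log2 fold change over glucose on the x axis and over low-melanin necromass on the y axis (3 libraries a group). The 69 members, dark, lie below zero on both axes as the rule requires, from -3.69 to -0.53 on x and from -4.17 to -0.82 on y.

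Whether members stood slightly below or above glucose on low-melanin necromass depended on the scale. By mean TPM, 44 of 69 were lower on low-melanin necromass than on glucose, with a median log2 ratio of -0.14, whereas by TMM-scaled counts per kilobase 37 of 69 were higher, with a median of 0.06. Over all 9084 transcripts the medians were -0.31 and -0.12 on these scales, so members stood above the general median on both. In edgeR's fit 10 members were called, where 55.6% of all genes were called in either direction. All 10 were higher on low-melanin necromass and none was called lower, where 27.6% of all genes were. The rule bounds this ratio on TPM, where the all-transcript median log2 ratio was -0.31, beside 0.02 over all genes in edgeR's fit. The bound is therefore not centred in edgeR's fit, where members ran from -0.41 to 0.83. Both the count and its direction are a description, and nothing is read from the direction. The count was 5 with fragment length as a covariate, 3 without glucose replicate 2 and 5 without glucose replicate 3. Over all genes the calls in these fits were 5015, 5155 and 5498, beside 5963 in the main fit. Without low-melanin replicate 1, 11 members were called higher and 2 lower, and without low-melanin replicate 2, 6 higher and 2 lower. In the latter case the members' median log2 fold change was 0.009, below the 0.03 of all genes, whereas it was 0.12 beside 0.02 with all libraries. Without high-melanin replicate 3, 11 were called higher and 1 lower. Over all genes, calls in either direction were 5241 without low-melanin replicate 1, 5358 without low-melanin replicate 2 and 6622 without high-melanin replicate 3. The 10 called were GLOTRDRAFT_127188, GLOTRDRAFT_113201, GLOTRDRAFT_67645, GLOTRDRAFT_80917, GLOTRDRAFT_108872, GLOTRDRAFT_73695, GLOTRDRAFT_96613, GLOTRDRAFT_130688, GLOTRDRAFT_110676 and GLOTRDRAFT_132072, with log2 fold changes from 0.53 to 0.83, and all 10 were named after their values were seen.

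The spread between libraries of a group was widest on low-melanin necromass. The members' median coefficient of variation of TPM was 27.4% there, beside 19.5% over the 9084 transcripts. It was 11.5% beside 9.35% on glucose and 19.8% beside 17.4% on high-melanin necromass. Part of this had a common order. On the TMM-scaled counts per kilobase, low-melanin replicate 2 was the highest of its group in 49 of 69 members, or 71.0%, beside 42.6% of all 9084 transcripts. High-melanin replicate 2 was the highest of its group in 41 members, or 59.4%, beside 31.4%. High-melanin replicate 3 was the lowest in 38, or 55.1%, beside 43.1%. In the 12 members with the largest drop, replicate 3 was the lowest in 10, and the highest high-melanin library was a median of 4.19 times the lowest, against 1.31 times in the other 57. These 12 were ranked on the high-melanin mean, so a very low library there favours a place among them. Nothing is read from this contrast.

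On the same scale low-melanin replicate 2 exceeded replicate 1 in 50 members, and high-melanin replicate 2 exceeded replicate 3 in 46. Both held in 37 of 69 members, or 53.6%, beside 33.0% of the 9084 transcripts, with median log2 differences of 0.42 and 0.23 in the members beside 0.06 and 0.03. Across the 69 members the differences had a Pearson correlation of 0.34 and a Spearman correlation of 0.48, and across the 9084 transcripts of 0.12 and 0.08. All points come from the same 4 libraries, and this pair of contrasts was chosen after the values were seen. No cause of the differences within groups was tested.

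**Figure D5:**
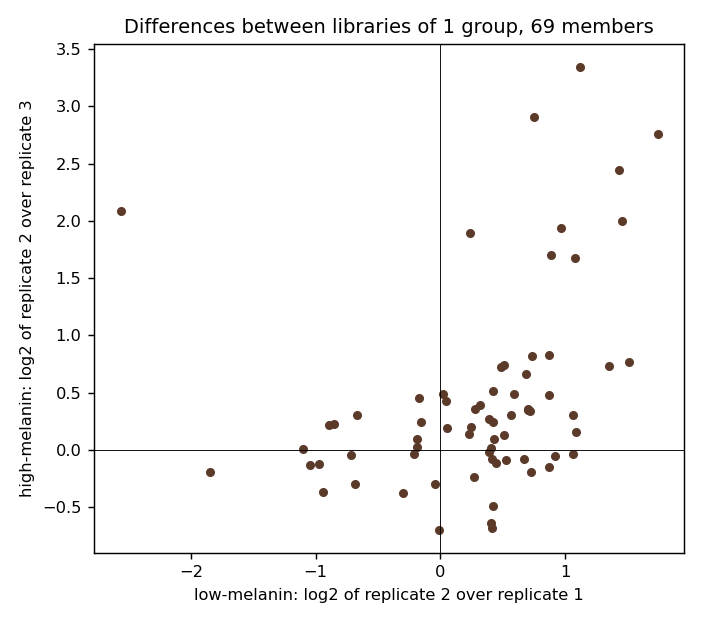
Each point is 1 of the 69 members, on the scale of TMM-scaled counts per kilobase plus 1. The x axis gives the log2 ratio of low-melanin replicate 2 over replicate 1 and the y axis that of high-melanin replicate 2 over replicate 3, and 37 points lie above zero on both.

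The profile over the 9 libraries was alike among members. The Pearson correlation of a member's log2(TPM + 1) with the median member profile ran from 0.67 to 0.98 with a median of 0.94, much of which the rule fixes. The most alike were GLOTRDRAFT_108762 at 0.983, GLOTRDRAFT_134935 at 0.981 and GLOTRDRAFT_132957 at 0.980. GLOTRDRAFT_134935, a transcript of 1899 bases, stood at 51.2, 52.8 and 45.9 TPM on glucose, 27.3, 44.5 and 44.1 TPM on low-melanin necromass and 15.5, 17.0 and 8.22 TPM on high-melanin necromass. The least alike was GLOTRDRAFT_130892, also the nearest to the bound against glucose.

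Level and length were compared with those of all transcripts that met the same minimum on glucose. Of the 69, 23 had at least 100 TPM on glucose, or 33.3%, beside 18.5% of the 9084 transcripts. Their median length was 1074 bases beside 1209, and 42.0% were under 1000 bases beside 38.2%. In 8 members, or 11.6%, some reads were split among transcripts, beside 12.3%. By these counts, abundance differed from the background more than length or shared reads did. The rule, however, asks for glucose levels above those on high-melanin necromass, which was not asked of the 9084. This favours a larger share at 100 TPM, so no trait of the members is read from it. A share above the 18.5% was not particular to the members. In lists made by rules of the same form, given below, it was 26.7% of transcripts lower only on low-melanin necromass and 26.9% of those higher only there. It was 11.7% of those higher only on high-melanin necromass.

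In the gene order of assembly Glotr1_1, 6 of the 69 members, or 8.70%, lay within 2 gene positions of another, as 3 directly adjacent pairs. The share to be met by gene order alone was not computed, so no clustering is read from this. The first pair was GLOTRDRAFT_136682 and the most deeply lowered member, GLOTRDRAFT_56292. GLOTRDRAFT_136682 stood at 60.2, 59.2 and 57.2 TPM on glucose, 41.4, 48.9 and 48.1 TPM on low-melanin necromass and 20.6, 22.3 and 13.6 TPM on high-melanin necromass, so its drop was smaller than its neighbour's. The second was GLOTRDRAFT_52256 and GLOTRDRAFT_108872, the latter at 63.2, 61.2 and 48.8 TPM on glucose, 59.7, 103 and 74.9 TPM on low-melanin necromass and 37.4, 41.7 and 24.5 TPM on high-melanin necromass. The third was GLOTRDRAFT_80917, at 49.2, 45.8 and 46.5 TPM on glucose, 43.9, 81.7 and 68.9 TPM on low-melanin necromass and 28.6, 32.5 and 20.9 TPM on high-melanin necromass, and GLOTRDRAFT_123044, at 17.3, 13.8 and 15.9 TPM on glucose, 11.3, 21.03 and 17.9 TPM on low-melanin necromass and 6.39, 6.58 and 3.22 TPM on high-melanin necromass. In all 3 pairs the glucose levels of the neighbours differed several-fold, while high-melanin replicate 3 was the lowest library of each gene.

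Of the 24 genes directly next to the 12 with the largest drop, 3 were at least 1.5-fold lower on high-melanin necromass than on both other carbon sources. GLOTRDRAFT_136682 and GLOTRDRAFT_108872 were members, and the other was GLOTRDRAFT_130003, next to GLOTRDRAFT_130004, at 217 ± 32.9 TPM on glucose, 30.9 ± 1.87 TPM on low-melanin and 6.13 ± 2.94 TPM on high-melanin necromass (SD, n = 3). It was thus already far lower on low-melanin necromass than on glucose. The share of all transcripts at least 1.5-fold lower against both carbon sources was not computed, so nothing is read from 3 of 24.

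Rules of the same form, turned to the other direction or to low-melanin necromass, gave 162 transcripts higher only on high-melanin, 105 lower only on low-melanin and 26 higher only on low-melanin necromass. Within 2 gene positions of another of the same list lay 14.8% of the 162, 7.62% of the 105 and none of the 26. The sizes of all 4 lists moved with the scale. On TMM-scaled counts per kilobase, in the order beginning with the transcripts lower only on high-melanin necromass, the lists held 126, 67, 43 and 71 transcripts, in place of 69, 162, 105 and 26. The order between lower and higher on high-melanin necromass was therefore turned by the scale, and the number lowered only there cannot be given without naming it. Without low-melanin replicate 1, the library with the large share of short transcripts, the TPM rule gave 111, 107, 76 and 50. Without high-melanin replicate 3 it gave 62, 239, 153 and 29.

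The choice of scale and of libraries also changed which members were found. By TMM-scaled counts 60 of the 69 were kept, or 87.0%, and they were 47.6% of the list of 126. Among the 12 with the largest drop 11 were kept, all but GLOTRDRAFT_132851, and among the 8 most abundant 7. The rule without each of the 9 libraries in turn kept 50 to 69 of them, fewest without low-melanin replicate 2, where the list held 61. Without high-melanin replicate 3 the number kept was 58, and 34 were kept in all 9 cases. These 34 were also kept by TMM scaling and included GLOTRDRAFT_56292, GLOTRDRAFT_132957, GLOTRDRAFT_123360, GLOTRDRAFT_52256, GLOTRDRAFT_113658 and GLOTRDRAFT_121179 of the 12 with the largest drop.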

How the data were processed

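TRIzol with PureLink columns gave the RNA and the NEBNext Ultra II RNA kit the libraries, per the labels' protocols. The submitters' processing notes name kallisto 0.51.1 and DESeq2 1.48.2. The transcript set, its build and the use of strand are not given in the sources used here. The authors deposited estimated counts, TPM, lengths and effective lengths per transcript. All 11880 *G. trabeum* identifiers matched a RefSeq gene table of assembly Glotr1_1, used for locus tags and gene order only, with a scaffold border wherever the start position fell.

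Members were found on the TPM values. The members, lists and comparisons were chosen with earlier results of these data known. Rounded estimated counts of all 9 libraries were filtered with filterByExpr, scaled with TMM and fitted with carbon source as the only term in edgeR 4.0.16 (glmQLFit and glmQLFTest, robust) in R 4.3.3. P-values were adjusted by Benjamini-Hochberg over 10728 genes. Standard errors are the log2 fold change over the square root of F. TMM-scaled counts per kilobase are CPM values, scaled by TMM, over the effective length. DESeq2 1.42.0, limma-voom (limma 3.58.1), other scalings, no filter, the 6 libraries compared alone, a replicate block, fragment length as a covariate and leaving out each library were alternatives. The procedures were tested on simulated data. A transcript shared reads if an estimated count was over 0.01 from whole in any library.

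Genes were named by rule as the 12 with the largest fold, the 8 with the highest level, members within 2 gene positions of each other, those next to the 1.5-fold bounds and the 3 most like the median profile. Product-name, protein-motif and promoter groups could not be made, as no sequences or products were used here. Members' estimated counts were at least 20 in every library.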

Additional observations from a re-analysis of the deposited data

How the results depend on the processing

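The number of members was 69. It moved to 27 with a bound of 2-fold, to 126 with TMM-scaled counts per kilobase of effective length, and to 112 with TPM rescaled without transcripts under 200 bases, an alternative chosen after seeing the data. A smaller bound, other pseudocounts, other glucose minimums and no requirement on overlap gave 59 to 93. Leaving out 1 library gave 61 to 111. TMM scaling and the rescaled TPM both changed the scale of all 9 libraries, not of low-melanin replicate 1 alone. Why the number moved was not tested.

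Members called lower were 65 to 68 against glucose and 47 to 69 against low-melanin necromass over all alternatives, beside 68 and 69. Over all genes, calls in either direction ran from 5562 to 6531 and from 320 to 1218 in the same order, beside 6325 and 720. Members called on low-melanin necromass against glucose, 10 as reported, were 5 with fragment length as a covariate and 3 to 13 without 1 library. Over all genes such calls were 5015 with the covariate and 5155 to 6622 without 1 library, beside 5963. No pairing by replicate number was seen over all genes, with correlations of same-numbered deviations from -0.516 to 0.0795 and 0 of 9 libraries correlating best with their own number. These correlations cannot show whether same-numbered libraries were handled together. With the replicate block 67 and 62 members were called lower and 10 were called on low-melanin necromass against glucose. Over all genes, calls in either direction with the block were 5879, 513 and 5515 in the same order.

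For the 15 members with the largest fold or highest level, 30 log2 fold changes had 540 alternative values. None changed sign, which the rule made likely on the same libraries, and 23 lost their call, all against low-melanin necromass. Of these, 9 were of GLOTRDRAFT_121179, 7 of GLOTRDRAFT_132851 and 3 of GLOTRDRAFT_123360. In all, 13 values moved by over 1.5 times, all without 1 library. The cause was not tested.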

Other observations

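The 9 members that left the list on TMM-scaled counts per kilobase were GLOTRDRAFT_108872, GLOTRDRAFT_113201, GLOTRDRAFT_127188, GLOTRDRAFT_130892, GLOTRDRAFT_132851, GLOTRDRAFT_135067, GLOTRDRAFT_67645, GLOTRDRAFT_73695 and GLOTRDRAFT_80917. They were named after their values were seen. Of these, 6 were among the 10 members called higher on low-melanin necromass than on glucose in edgeR's quasi-likelihood test at an adjusted p under 0.05. The rule bounds the ratio of low-melanin necromass to glucose, and both the list and the call used TMM-scaled counts. The overlap is therefore not a result. GLOTRDRAFT_108872 and GLOTRDRAFT_80917 each belong to an adjacent pair, and the partners, GLOTRDRAFT_52256 and GLOTRDRAFT_123044, were kept on both scales.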
